A study of Mus musculus with 8 samples.

Results

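Heat shock chaperones named by 10 symbols, Hspa1a, Hspa1b, Hspa8, Hsp90aa1, Hsp90ab1, Hsph1, Dnajb1, Dnaja1, Hspe1 and Hspd1, were followed in CD4+ T cells with and without the kinase IRAK1. For each symbol the array probe set annotated to that gene alone was taken, and where a gene had several, the probe set with the highest mean over the 8 arrays. Of the 10 symbols, 8 had such a probe set, among 22180 genes of the array that did, and all 8 passed the filter on low levels that left 13308 genes for testing. Dnaja1 shares its probe set with Mir207, which the rule leaves out, and Hsp90ab1 was not analysed here. The set is named for the cytosol, but Hspd1 and Hspe1 encode the chaperonin of the mitochondrial matrix and its cap.

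Heat shock chaperones bind unfolded proteins and release them for folding in cycles driven by ATP. HSP70 proteins hold exposed stretches of a client, J-domain proteins such as DNAJB1 bring clients and speed ATP hydrolysis, HSP110 proteins exchange the nucleotide, and HSP90 matures kinases and receptors, among them signalling proteins of T cells. The transcription factor HSF1 induces many of these genes when unfolded protein builds up.

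The 8 arrays hold 4 of Irak1-/- and 4 of wt T cells, all labelled C57BL/6. Irak1-/- cells carried the CD45.2 form of the leukocyte surface protein CD45 and wt cells the CD45.1 form, so genotype and CD45 form cannot be told apart. Both were transferred as CD4+CD62L+ cells, in equal numbers, into the same Rag1-/- mice, which lack lymphocytes of their own but keep myeloid cells, and which develop colitis from such transfers. The CD3+CD4+ cells of each form were sorted from mesenteric lymph nodes 14 days later. The 2 recipients of an experiment were pooled, and each experiment gave 1 array per genotype, so the arrays form 4 pairs. The labels do not give the ages of the mice. The comparison asks what T cells without IRAK1 express differently from wt cells of the same host.

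Levels are on the log2 scale, with array medians between 4.25 and 4.31, and the number of arrays limits the precision. Irak1 read 6.926, 6.834, 6.997 and 6.612 on the Irak1-/- arrays of replicates 1 to 4, against 7.164, 6.894, 6.644 and 6.390 on the wt arrays, a difference of 0.07 (SE 0.129, limma adjusted p = 0.953). The levels overlapped, and the labels do not say which part of the gene was deleted or whether the probe set reads it, so the Irak1 signal does not check the genotype labels. The Irak1-/- array of replicate 3 stood apart, with correlations of 0.957 to 0.970 with the others, which correlated at 0.976 to 0.986 among themselves. Cd3e, part of the T cell receptor complex, averaged 10.69 on Irak1-/- and 10.73 on wt arrays. Of 14 myeloid markers tested, 4 (Lyz2, Tyrobp, Fcer1g and H2-Aa) were called higher on Irak1-/- arrays, against 0.0676% of all genes. Of the 14, 8 were higher in 4 of 4 pairs, against 5.26% of all genes. Lyz2, in both counts, and Csf1r, in the second, had wt means of 3.84 and 3.81, under the lowest mean level tested, 3.9. They passed the level filter only through their Irak1-/- arrays, so they support no count. The list did not move as a whole. Differences were negative for 2 of the 14, Lgals3 with -0.15 and Cst3 with -0.005, and Itgam and Cd68 had 0.05 and 0.16. The mean level of the 15 measured myeloid markers ran from 6.22 to 6.65 on Irak1-/- arrays and from 5.30 to 5.57 on wt arrays. Of 8 NK and CD8 T cell markers, 0 were called. At an unadjusted p under 0.05 in limma, 4 were lower in Irak1-/-, against 3.82% of all genes. Klrd1 had a difference of -0.55 and Klrk1 of -0.51, both lower in 4 of 4 pairs, as were 8.91% of all genes. Cd8a and Klre1 were lower in 3 of 4. Of the others, Eomes had -0.05, while Cd8b1, Ncr1 and Klrb1c were higher, by 0.31, 0.05 and 0.04. The mean level of these 8 ran from 5.28 to 5.71 on Irak1-/- arrays and from 5.68 to 5.84 on wt arrays. Of 4 B cell markers tested, 0 were called. In bulk cells, fewer cells of a type and less RNA per cell cannot be told apart.

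The stress-inducible HSP70 genes Hspa1a and Hspa1b are neighbouring, near-identical copies. Their upstream sequences are shown because the copies have nearly the same promoter, while their levels correlated weakly over all 8 arrays and more closely without the Irak1-/- array of replicate 3. Each is the 250 bases before the gene start, 5′ to 3′, from RefSeq on GRCm38.p6, minus strand, and capitals mark the match to GAANNTTC, an inverted repeat of the unit that heat shock factors bind.
Hspa1a, chr17:34972157-34972406: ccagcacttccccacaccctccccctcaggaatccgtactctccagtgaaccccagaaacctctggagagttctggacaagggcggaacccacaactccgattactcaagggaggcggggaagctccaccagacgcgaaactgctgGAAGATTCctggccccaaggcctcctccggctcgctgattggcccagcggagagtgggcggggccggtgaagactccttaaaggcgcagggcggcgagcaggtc
Hspa1b, chr17:34959239-34959488: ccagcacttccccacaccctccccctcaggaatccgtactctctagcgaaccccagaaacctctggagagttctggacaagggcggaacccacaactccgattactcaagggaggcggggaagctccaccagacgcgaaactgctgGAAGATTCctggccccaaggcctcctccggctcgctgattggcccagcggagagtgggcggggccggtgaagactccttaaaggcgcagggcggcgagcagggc

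The windows were 98.8% identical. They differed at 3 of 250 bases, C44T, T47C and T249G, with the Hspa1a base first and positions counted from 1 at the 5′ end. The match to GAANNTTC began at position -104 from the gene start in both.

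The chaperonin genes Hspe1 and Hspd1 lie head to head, and a stretch just before the start of Hspe1, inside the annotated span of Hspd1, holds alternating heat shock units that fall in windows of both genes. It is shown with the match of Hsph1, the HSP110 member, as 30 bases of GRCm38.p6 each. The Hsph1 bases lie inside the annotated span of Hsph1 itself, whose windows hold 162 and 183 bases of the gene. Capitals mark matches to GAANNTTC or TTCNNGAA, which overlap in Hspe1.
Hspe1, chr1:55088053-55088082, plus strand: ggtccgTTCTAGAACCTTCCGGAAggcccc
Hsph1, chr5:149636351-149636380, minus strand: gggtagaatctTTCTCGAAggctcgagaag

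Both short motifs read the same on either strand, and the longer GAANNTTCNNGAA and TTCNNGAANNTTC contain them. Of the 10 symbols, 7 had upstream windows in the RefSeq table, 12 windows in all, some of them inside the gene from a second start. A short motif stood in a window of 6 of these 7 genes, and 14.5% of all 27025 genes in the table had one in any window. By window it was 7 of 12, against 12.8% of all 32851 windows. These counts are not of separate sites. Hspd1 counts only through the stretch before Hspe1, Hspa1a and Hspa1b are near-identical copies, and overlapping windows of Hsph1 hold the same match. A long motif stood in windows of Hspe1 and Hspd1, which is the same stretch counted for both, and in any window of 0.514% of all genes, or 0.466% of windows. The windows of Dnajb1 held no match to these motifs, from which nothing follows about the factor. Hspa8, Hsp90aa1 and Hsp90ab1 have no entry.

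No chaperone gene of the set was called between Irak1-/- and wt T cells. The log2 differences, Irak1-/- minus wt, lay between -0.15 for Hspa1a and 0.19 for Hspa1b, and the 95% confidence intervals reached from 0.699-fold to 1.51-fold. With limma and the pairs as a block, 0 of 8 were called higher and 0 lower at an adjusted p under 0.05, against 0.0676% and 0.00751% of all 13308 genes, or 0.0751% in either direction. The adjusted p ran from 0.861 to 0.989. At an unadjusted p under 0.05 there were also 0 of 8, against 6.70% of all genes, 2.88% higher and 3.82% lower. The difference was positive for 7 of 8 members with a median of 0.11, while over all genes 41.9% were positive and the median was -0.03. The members were read on the same arrays, so their signs are not separate observations. Their mean difference was 0.07, -0.05, 0.07 and 0.22 in pairs 1 to 4, and the median was 0.04 without pair 1 or without pair 4.

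**Figure D1:**
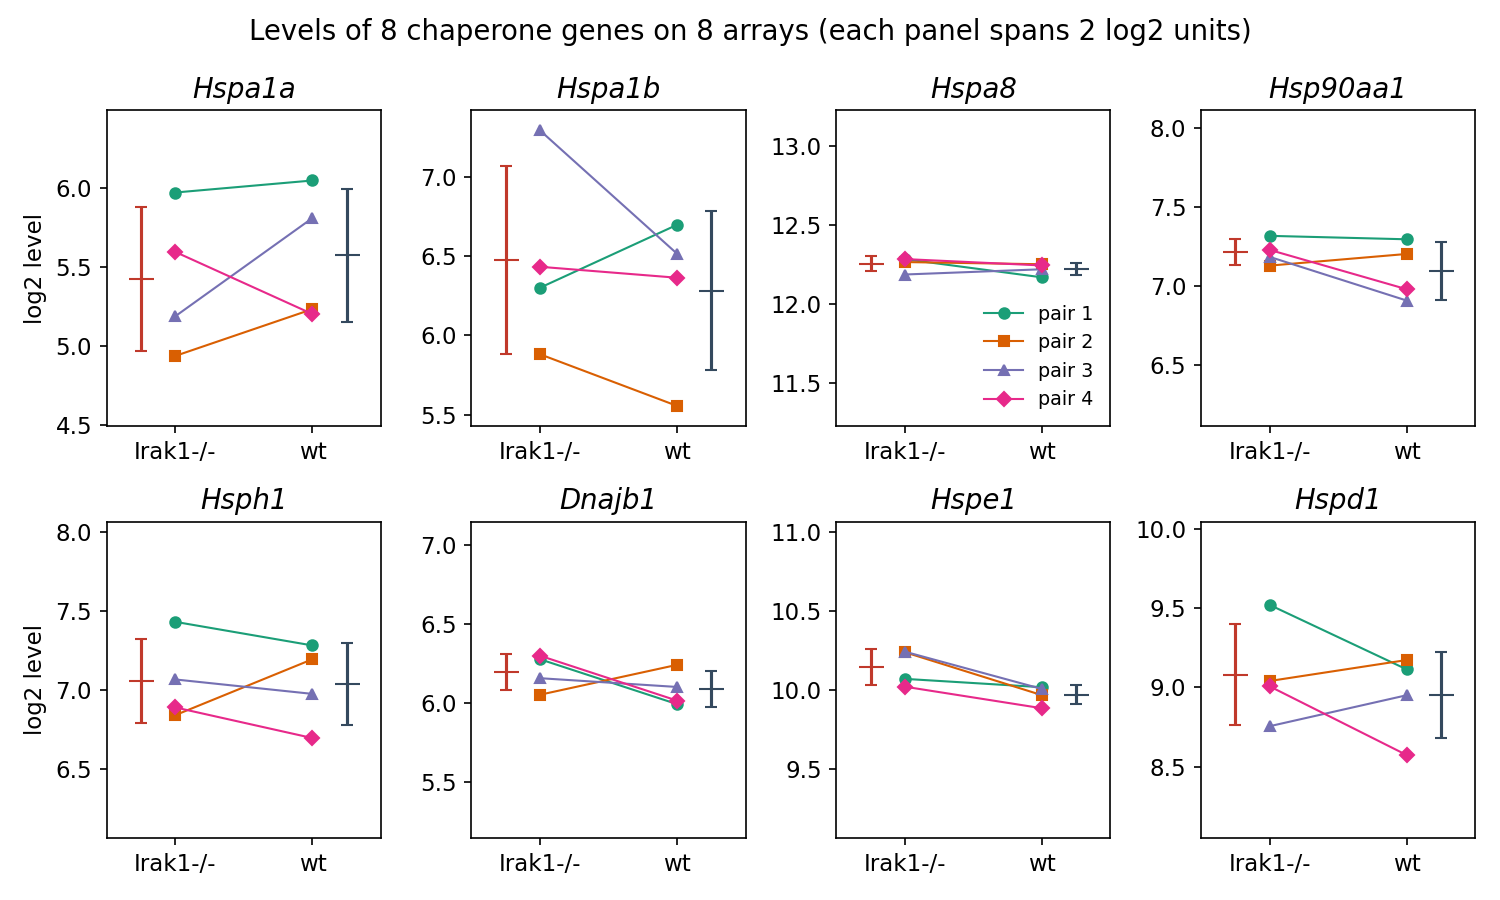
Log2 level (y axis) of each chaperone gene on the Irak1-/- (left) and wt (right) array of each pair, joined by lines, with the mean ± SD of 4 arrays at the sides; all panels span the same log2 distance. Hspa1b spreads most and Hspa8 least, and Hspe1 is the 1 gene whose genotypes do not overlap.

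Hspa1a read 5.97, 4.94, 5.19 and 5.59 on the Irak1-/- arrays of replicates 1 to 4, and 6.05, 5.23, 5.81 and 5.20 on the wt arrays. Replicate 1 was high in both genotypes and the groups overlapped. The mean was 5.42 ± 0.455 in Irak1-/- and 5.57 ± 0.421 in wt cells (SD, n = 4 each), a difference of -0.15 (SE 0.161, limma adjusted p = 0.931), lower in 3 of 4 pairs.

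Hspa1b read 6.30, 5.88, 7.30 and 6.43 on the Irak1-/- arrays, and 6.70, 5.55, 6.52 and 6.36 on the wt arrays. Its highest value was on the Irak1-/- array of replicate 3, the array that stood apart, and replicate 2 was lowest in both genotypes. The mean was 6.48 ± 0.594 in Irak1-/- and 6.28 ± 0.505 in wt cells (SD, n = 4 each), a difference of 0.19 (SE 0.177, limma adjusted p = 0.910), higher in 3 of 4 pairs. Without pair 3 it was -0.00071, and without pair 1 it was 0.39 (adjusted p = 0.749).

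The paralogs had differences of the same sign in pairs 1 and 4 and of opposite sign in pairs 2 and 3. In pair 3 the difference was -0.62 for Hspa1a and 0.78 for Hspa1b. Their levels correlated at r = 0.27 over the 8 arrays and at 0.72 without the Irak1-/- array of replicate 3. A further probe set, 17336820, carries both symbols, so the rule leaves it out. Its mean over the 8 arrays was 4.25, with pair differences of -0.56, -0.06, 0.42 and 0.12. How far each probe set also reads the other copy was not tested.

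Hspa8 encodes the constitutive cytosolic HSP70 that helps fold new proteins. It read 12.28, 12.26, 12.19 and 12.28 on the Irak1-/- arrays, and 12.17, 12.25, 12.22 and 12.24 on the wt arrays. All values lay within 0.115 of each other and the groups overlapped. The mean over the 8 arrays, 12.24, stood at the 99.9th percentile of all genes measured. Whether so high a signal could show a further rise was not tested. The difference was 0.03 (SE 0.103, limma adjusted p = 0.974).

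Hspa8 has 4 probe sets of its own, and they did not vary alike. Probe set 17548744 ranged over 0.118 and followed the kept probe set, 17548379, at r = 0.99 over the 8 arrays. Probe set 17516365 ranged over 0.464 and 17434475 over 0.656. These correlated at 0.91 with each other, and at 0.58 and 0.72 with the kept set.

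Probe set 17434475 of Hspa8 read 9.16, 9.00, 8.50 and 8.85 on the Irak1-/- arrays, and 8.67, 8.83, 8.67 and 8.52 on the wt arrays. The highest and the lowest value were both on Irak1-/- arrays. With every probe set tested as its own row, its difference was 0.20 (SE 0.131, limma adjusted p = 0.863), and that of 17516365 was 0.13 (SE 0.116, adjusted p = 0.912). All 4 probe sets had positive differences and none was called.

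**Figure D2:**
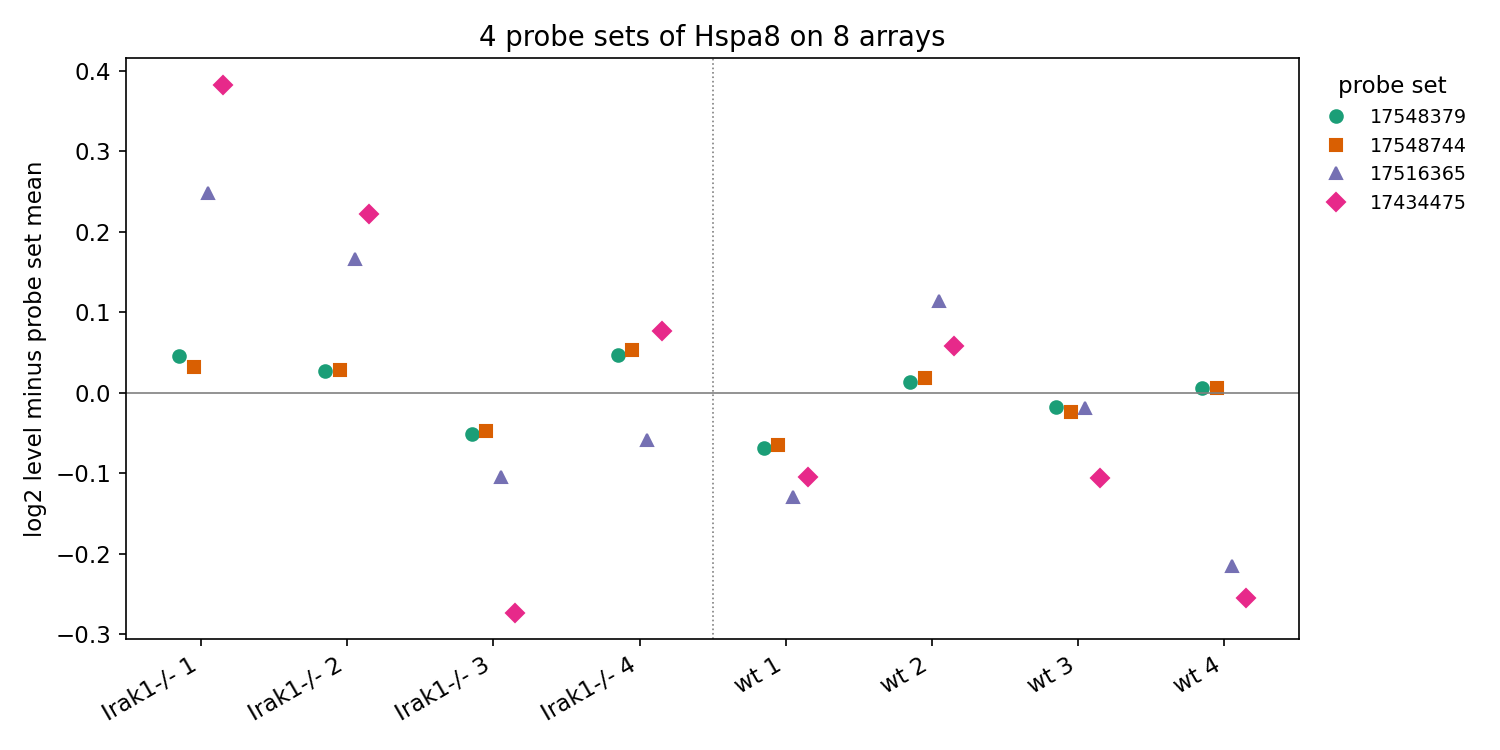
Log2 level of each Hspa8 probe set minus its own mean over the 8 arrays (y axis), by array, Irak1-/- left of wt. Probe sets 17434475 and 17516365 spread over 0.656 and 0.464, the other probe sets over 0.118 and 0.115, and both wide ones peak on the Irak1-/- array of replicate 1.

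Hsph1, the HSP110 member, read 7.43, 6.84, 7.07 and 6.89 on the Irak1-/- arrays, and 7.28, 7.20, 6.98 and 6.70 on the wt arrays. Replicate 1 was highest in both genotypes and the groups overlapped. The difference was 0.02 (SE 0.126, limma adjusted p = 0.989), and it was negative when pair 1, 3 or 4 was left out.

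Dnajb1, the J-domain partner of inducible HSP70, read 6.28, 6.05, 6.16 and 6.30 on the Irak1-/- arrays, and 5.99, 6.24, 6.10 and 6.02 on the wt arrays. Pairs 1 and 4 each differed by 0.28 and pair 2 by -0.19, with overlapping groups. The fitted difference was 0.11 (SE 0.121, limma adjusted p = 0.936).

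Hsp90aa1, the inducible cytosolic HSP90, read 7.32, 7.13, 7.19 and 7.23 on the Irak1-/- arrays, and 7.30, 7.20, 6.91 and 6.98 on the wt arrays. The wt arrays of replicates 3 and 4 were lowest, and the groups overlapped. The mean was 7.22 ± 0.0795 in Irak1-/- and 7.10 ± 0.183 in wt cells (SD, n = 4 each), a difference of 0.12 (SE 0.114, limma adjusted p = 0.918).

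Hspe1, the cap of the mitochondrial chaperonin, read 10.07, 10.24, 10.24 and 10.02 on the Irak1-/- arrays, and 10.02, 9.97, 10.01 and 9.88 on the wt arrays. The groups did not overlap, though the lowest Irak1-/- value, 10.021, lay just above the highest wt value, 10.018. It was the 1 member of 8 without overlap, against 3.04% of all genes, 1.17% with Irak1-/- higher.

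The fitted difference of Hspe1 was 0.17 (SE 0.106, 95% confidence interval -0.07 to 0.41, limma adjusted p = 0.861), or 1.13-fold, higher in 4 of 4 pairs, as were 5.26% of all genes. The pair differences were 0.05, 0.27, 0.24 and 0.14. The tested myeloid markers, Lyz2 and Csf1r included, had mean differences of 0.66, 1.01, 1.23 and 1.17 in the same pairs. Those of the NK and CD8 T cell markers were -0.15, -0.40, -0.13 and -0.28. The part of these markers in the Hspe1 values was not tested.

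Hspd1, the chaperonin that HSPE1 caps, read 9.52, 9.04, 8.75 and 9.01 on the Irak1-/- arrays, and 9.11, 9.17, 8.95 and 8.57 on the wt arrays. Pairs 1 and 4 were higher in Irak1-/- by 0.41 and 0.43, and pairs 2 and 3 had -0.13 and -0.20. The fitted difference was 0.13 (SE 0.142, limma adjusted p = 0.936), and with pairs left out in turn it ran from 0.03 without pair 4 to 0.24 without pair 3. Levels of these neighbouring genes, Hspe1 and Hspd1, correlated at r = 0.10 over the 8 arrays, and at 0.44 without the Irak1-/- array of replicate 3.

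**Figure D3:**
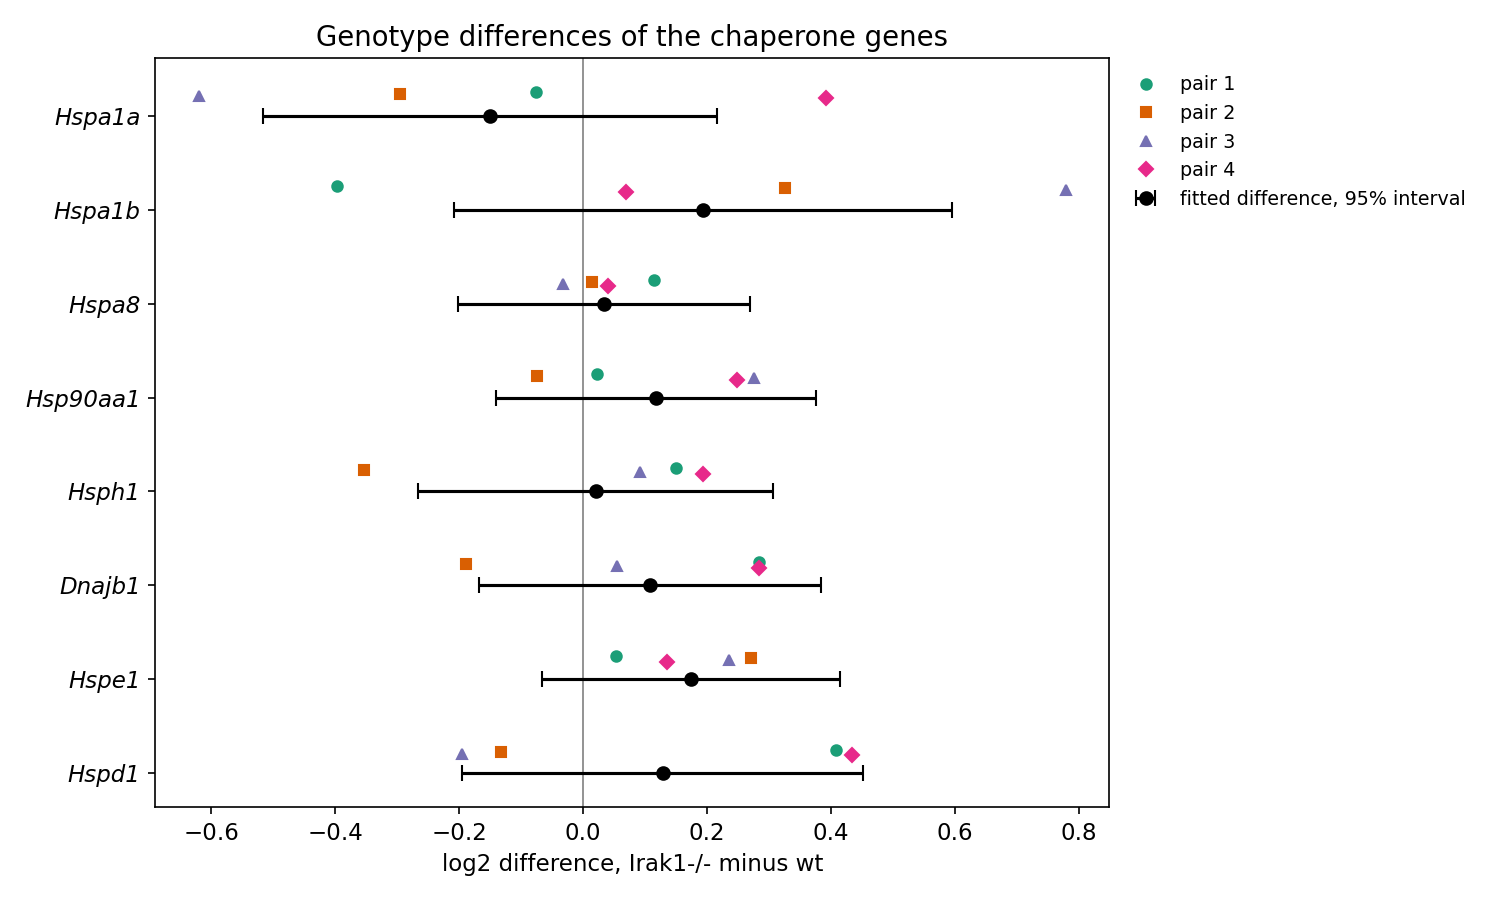
Log2 difference, Irak1-/- minus wt (x axis), of each chaperone gene; black points with bars are the limma estimate and its 95% confidence interval, coloured points the 4 pairs. Every interval spans 0, and Hspe1 is the 1 gene with all pairs above 0.

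Between experiments the inducible HSP70 genes moved most. The mean of a pair ran from 5.08 in pair 2 to 6.01 in pair 1 for Hspa1a, and from 5.72 in pair 2 to 6.91 in pair 3 for Hspa1b, while Dnajb1 stayed between 6.13 and 6.16. In limma's moderated F test of the 4 batches, 0 of 8 members were called, as were 0% of all genes. Before adjustment 2 of 8 members, Hspa1a and Hspa1b, were under 0.05, against 9.66% of all genes, and their adjusted p in this limma test were 0.453 and 0.412. That count was 1 without pair 1 or without pair 2, 3 without pair 3 and 4 with trend and robust settings.

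The members did not vary as a single block. Of 28 gene pairs, 21 had a positive Pearson r over the 8 arrays and 5 an r over 0.6, with a median of 0.189. The highest were Hsph1 with Hspd1 (0.81), Hsp90aa1 with Hsph1 (0.71) and Hsp90aa1 with Hspd1 (0.66), and the lowest was Hspa1b with Hspa8 (-0.62). Hspa8 correlated with Hspd1 at 0.86 through probe set 17434475, against 0.36 through the kept set. These values describe 8 arrays that share hosts in pairs.

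Of the other genes tested, the 6 most like the mean of the members, each centred on its own mean, were Ola1 (r = 0.96 over 8 arrays), Sec23ip (0.95), Tsen15 (0.94), 4930444G20Rik (0.93), Ncbp1 (0.93) and Agk (0.92). Ola1 encodes an Obg-like ATPase, Tsen15 a subunit of the tRNA splicing endonuclease, Ncbp1 a nuclear cap-binding protein and Agk a mitochondrial lipid kinase. Their genotype differences lay between 0.01 and 0.07. The r values are the highest picked from all other genes tested, on 8 arrays, and a link to the chaperones was not tested.

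In the wider chaperone network, 90 of 106 listed genes on 7 lists were tested, and limma called 0 higher and 0 lower, with a lowest adjusted p of 0.404. Without adjustment Hspa12b and Hspa4l had p under 0.05, both lower in Irak1-/-. Bag2 did so too, but it passed the level filter only through its wt arrays and supports no count. With Bag2 included the share was 3.33% of those tested, beside 3.82% of all genes lower, with 0 higher beside 2.88%.

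Of the heat shock factors and their regulators, 4 of 7 were tested and 0 called, with a median difference of -0.11. Hikeshi, which carries HSP70 into the nucleus, had -0.17 (limma adjusted p = 0.910), Hsf2, a heat shock factor, -0.12 (adjusted p = 0.941), and Hsbp1, which binds heat shock factor trimers, -0.09. Hsf1 was not analysed here.

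Of the other HSP70, HSP110 and small heat shock genes, 9 of 16 were tested and 0 called, with a median of -0.04. Hspa12b, a distant HSP70 relative, averaged 4.12 ± 0.134 in Irak1-/- and 4.54 ± 0.180 in wt cells (SD, n = 4 each), a difference of -0.42 (SE 0.105, limma adjusted p = 0.404). Hspa4l, an HSP110 relative, had -0.34 (SE 0.121, adjusted p = 0.628). Both were lower in 4 of 4 pairs, as were 8.91% of all genes. Hspa14, a ribosome-associated HSP70, had -0.12, Hspa4, another HSP110, -0.02, and Hspb1, a small heat shock protein, 0.10.

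Of the other J-domain genes, 14 of 16 were tested and 0 called, with a median of -0.01. Dnajb14, of the endoplasmic reticulum membrane, had 0.23 (limma adjusted p = 0.812), higher in 4 of 4 pairs, as were 5.26% of all genes. Dnajb4 and Dnajb5, relatives of Dnajb1, had -0.18 and -0.14. Of these, Dnajb5 was lower in 4 of 4 pairs, as were 8.91% of all genes.

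Of the HSP90 and HSP70 cochaperones, 24 of 26 were tested and 0 called, with a median of -0.02. Bag2, an inhibitor of the ubiquitin ligase CHIP, averaged 3.77 ± 0.227 in Irak1-/- and 4.10 ± 0.0948 in wt cells (SD, n = 4 each), a difference of -0.33 (SE 0.110, limma adjusted p = 0.603). The lowest mean level tested was 3.9, so Bag2 passed the filter only through its wt arrays, and its difference supports no count. Sgta, which shields hydrophobic clients, had -0.43 (adjusted p = 0.788), with -1.34 in pair 3, and Bag4 had 0.22. Stip1, the adaptor between HSP70 and HSP90, had -0.06, Cdc37, the kinase adaptor of HSP90, -0.01, and Bag3, an HSP70 partner in autophagy, -0.08. Stub1, the gene of CHIP, was not analysed here.

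Of the genes of TRiC, the cytosolic chaperonin for actin and tubulin, and of prefoldin, which delivers to it, 13 of 14 were tested and 0 called, with a median of 0.03. The TRiC subunits Cct4 and Cct6a had 0.16 and 0.14, and Vbp1, a prefoldin subunit, 0.15, with adjusted p from limma of 0.891, 0.893 and 0.937.

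Of the mitochondrial chaperones and proteases, 12 of 12 were tested and 0 called, with a median of -0.07. Hspa9, the mitochondrial HSP70, averaged 8.62 ± 0.147 in Irak1-/- and 8.47 ± 0.0658 in wt cells (SD, n = 4 each), a difference of 0.15 (SE 0.108, limma adjusted p = 0.889), higher in 4 of 4 pairs. Of all genes, 5.26% were higher in 4 of 4 pairs. Lonp1, a matrix protease, had -0.20 and Grpel2, a nucleotide exchange factor, -0.18. Both were lower in 4 of 4 pairs, as were 8.91% of all genes. Clpb, a disaggregase, had -0.21.

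Of the endoplasmic reticulum stress genes, 14 of 15 were tested and 0 called, with a median of -0.01. Hspa5, the HSP70 of that compartment, had 0.03, Hyou1, its HSP110 partner, -0.22, Sdf2l1, a chaperone cofactor there, -0.21, and Creld2 -0.12.

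Immediate early genes, induced within minutes by activation and by cell handling, were listed beside the inducible chaperones. All 16 were tested and 0 called, with a median of -0.11, and without adjustment 3, or 18.8%, had p under 0.05, all lower, beside 3.82% of all genes. Nr4a1, induced by antigen receptor signals, averaged 7.49 ± 0.398 in Irak1-/- and 8.25 ± 0.184 in wt cells (SD, n = 4 each), a difference of -0.76 (SE 0.138, limma adjusted p = 0.162). Ier3 had -0.50 (limma adjusted p = 0.335) and Ier2 -0.40 (adjusted p = 0.472). Nr4a1, Ier3 and Ier2 were among the 5 of 16 that were lower in 4 of 4 pairs, beside 8.91% of all genes. Differences were positive for 4 of the 16: Atf3 with 0.38, Egr2 with 0.27, Fos with 0.21 and Ier5 with 0.04. Hspa1a was lower in 3 of 4 pairs and Hspa1b in 1 of 4.

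**Figure D4:**
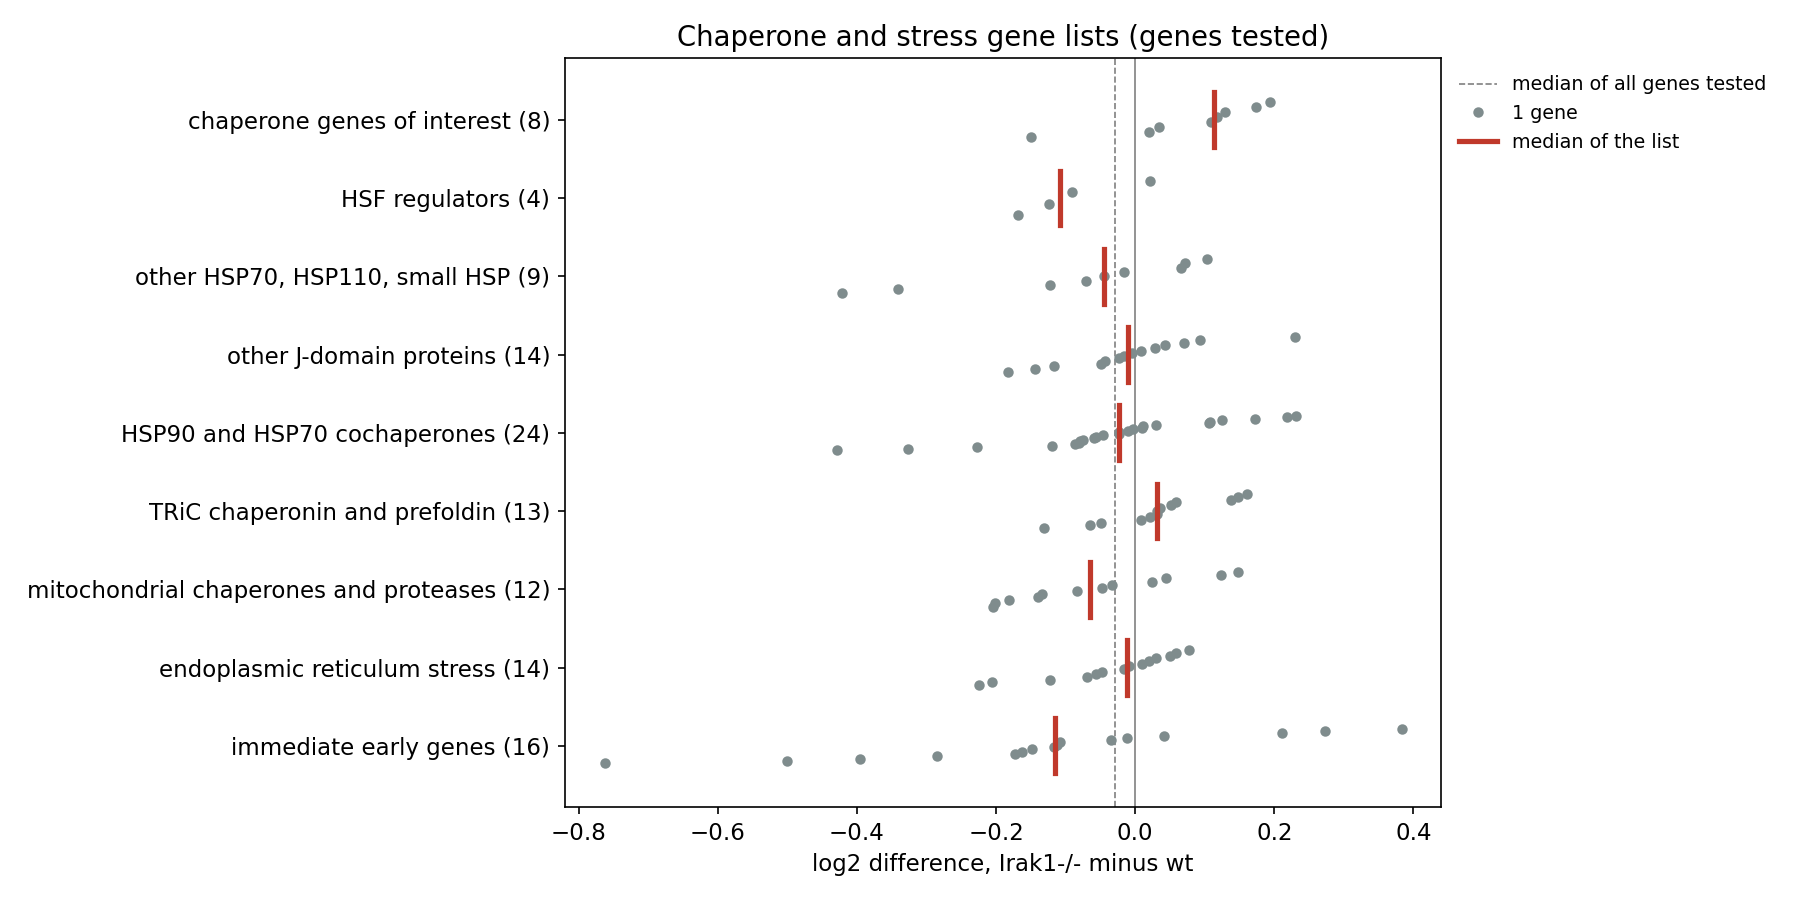
Log2 difference, Irak1-/- minus wt (x axis), of each tested gene (grey points) on the chaperone and stress lists (rows, number tested in brackets), with list medians as red bars and the median of all genes tested as a dashed line. The list medians lie between -0.11 and 0.11, and the point farthest from 0 is Nr4a1 at -0.76.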

How the data were processed

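Values are log2 levels of 41345 probe sets on 8 biotin-labelled Affymetrix arrays, as the authors deposited them; neither the labels nor the file say how they were normalised. Of the probe sets, 23521 carry 1 gene symbol, 1814 carry several and 16010 are unnamed here, and 23328 were matched by gene identifier to the GRCm38.p6 gene table for current symbols. Genes under the 40th percentile of mean level were left out. The genotype difference came from limma 3.58.1 (R 4.3.3, lmFit and eBayes, two-sided), with the batch label as a block and Benjamini-Hochberg adjustment over 13308 genes; its moderated F test compared batches. The labels pair the arrays by batch, and deviations of same-numbered arrays correlated at 0.185, 0.143, 0.200 and 0.0799. The labels do not say whether donors differed between batches.

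The members and lists were chosen with earlier results of these data known. Named were the members, a panel of 11 chaperone genes, per list the 3 tested genes with the smallest p, the 6 genes most like the members, and cell type markers. On simulated data with 13308 genes the genotype test recovered 6.8% of genes changed by 0.5, 63.6% changed by 1 and 94.8% changed by 2 (log2), and the batch test 67.9% of genes with batch effects of SD 1. Alternatives changed the block, normalization, level filter, choice of probe sets and eBayes settings, or left out 1 pair or the Irak1-/- array of replicate 3; other Hspa8 probe sets and a median without Hspa1a and Hspa1b were added after the data were seen.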

Additional observations from a re-analysis of the deposited data

How the results depend on the processing

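No member and no listed gene was called under any of 14 alternatives, and no member in the batch test under 11. An unadjusted p under 0.05 was reached in the genotype test by at most 1 member, Hspa1b without pair 1, and by 5 to 9 listed genes, and in the batch test by 1 to 4 members. With no replicate block, 0 members and 11 genes in all were called, against 10 with the block. Over all genes, 16 were called with a random block, 16 with trend and robust settings, and 7 to 17 with pairs left out in turn (17 without pair 1); the cause was not tested. The median member difference ran from 0.041 to 0.148. Of 115 recomputed member differences 7 changed sign: Hspa8 had -0.00044 with quantile normalization, Hspa1b -0.0781 with no block and without the Irak1-/- array of replicate 3, and with pairs left out Hspa1a ran from -0.331 to 0.00695, Hspa1b from -0.00071 to 0.392 and Hsph1 from -0.0377 to 0.145. In the same way Hspd1 ran from 0.0264 to 0.237, Dnajb1 from 0.050 to 0.208, Hsp90aa1 from 0.0656 to 0.182, Hspa8 from 0.00699 to 0.0563 and Hspe1 from 0.142 to 0.215. The lowest adjusted p of a member was 0.749. Small changes are hard to call with 4 pairs: a simulated log2 change of 0.5 was recovered in 6.8% of genes.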
